A study of Mus musculus with 16 samples.

Results

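Expression of 10 genes of the Wnt pathway was examined in primary mouse mammary fibroblasts: the ligands WNT2, WNT4 and WNT5A, the secreted inhibitors SFRP1, SFRP2, DKK2 and DKK3, and the target and feedback genes WISP1, WISP2 and AXIN2. They were chosen by name, with earlier results of these data known, and all 10 were found among the 18132 genes of the array table. WISP1 and WISP2 are listed in RefSeq as Ccn4 and Ccn5. Fibroblasts from the inguinal mammary glands of 129S6 females of 8 to 10 weeks, either MEKK1+/+ or MEKK1-/-, were kept in DMEM with 10% serum or exposed for 8 h to conditioned medium (CM), which is the growth medium harvested from cultures of MDA-MB-231 cells, a human breast cancer line. Each of the 4 combinations of genotype and medium was measured on 4 Illumina Mouse 8 arrays, 16 in all. The methods give 3 mice per genotype, so cultures of a group may share a mouse and the p values measure the spread between cultures. Untreated cells received fresh growth medium, and the labels do not state which part of the MEKK1 gene was removed in the MEKK1-/- mice.

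Wnt ligands are secreted lipid-modified proteins that bind Frizzled receptors with LRP co-receptors or with the ROR and RYK receptors. In the canonical branch, binding stabilizes beta-catenin, which enters the nucleus and acts with TCF/LEF factors on targets such as AXIN2, while other branches act on the cytoskeleton and cell movement without beta-catenin. Secreted frizzled-related proteins bind Wnt ligands outside the cell, and Dickkopf proteins, in the classical case, bind LRP co-receptors. In the mammary gland the pathway acts between stroma and epithelium during branching and alveolar growth.

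Intensities are given as log2 values after quantile normalization, and an array's background level was the 99th percentile of 1075 olfactory receptor genes, which ran from 7.20 to 7.34 (log2) over the arrays. A gene was said to rise or fall only when limma gave it an adjusted p under 0.05, with the adjustment made over the whole table. MAP3K1, which encodes MEKK1, was no lower in the MEKK1-/- cells: its level was 7.95, 7.77, 7.60 and 7.51 on the untreated MEKK1+/+ arrays and 8.06, 8.31, 8.17 and 8.41 on the untreated MEKK1-/- arrays, a difference of 0.53 (log2, adjusted p = 0.465, exact permutation p = 0.0286). Where its probe lies relative to the deletion is not stated, so genotype directions rest on the labels. Of 12 fibroblast markers, 11 were above background on every array. The MEKK1-/- replicate 1 arrays, untreated and with CM, stood apart by epithelial keratins, with KRT8 at 11.82 and 11.61 and KRT14 at 11.90 and 11.48, whereas KRT8 reached at most 8.62 and KRT14 at most 7.95 on the other arrays. These replicate 1 arrays are called keratin-rich here. Lower keratin levels were also present on replicates 3 and 4 of MEKK1-/-, where KRT14 was at 7.95 and 7.78 untreated and at 7.49 and 7.55 with CM, above background on each, while it was above background on none of the MEKK1+/+ arrays. The summed linear intensity of the 10 measured epithelial markers other than ACTA2 was 10009 and 8495 on those arrays and 1379 to 1872 on all others. Of these 10 markers 1 was above background on every array and 4 were on none. The sum of 14 macrophage markers also differed between arrays, from 26300 to 79620 in MEKK1+/+ cells and from 12346 to 65164 in MEKK1-/- cells, with 9 of the 14 above background on every array and 2 on none. In such bulk samples fewer cells of a type and less RNA per cell cannot be told apart.

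Of the 10 genes, 6 were above background on all 16 arrays: WNT5A, SFRP1, SFRP2, DKK3, WISP1 and WISP2. AXIN2 was above it on 8 arrays, WNT4 on 1, and WNT2 and DKK2 on 0. After 8 h of CM, WNT5A, WISP1 and WISP2 fell in MEKK1+/+ cells, by 1.83-fold, 1.81-fold and 2.20-fold, and WISP2 fell in MEKK1-/- cells by 2.48-fold. No member rose in the unpaired test. None of the 10 differed between genotypes past the threshold, and none of the responses to CM differed between genotypes past it.

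**Figure D1:**
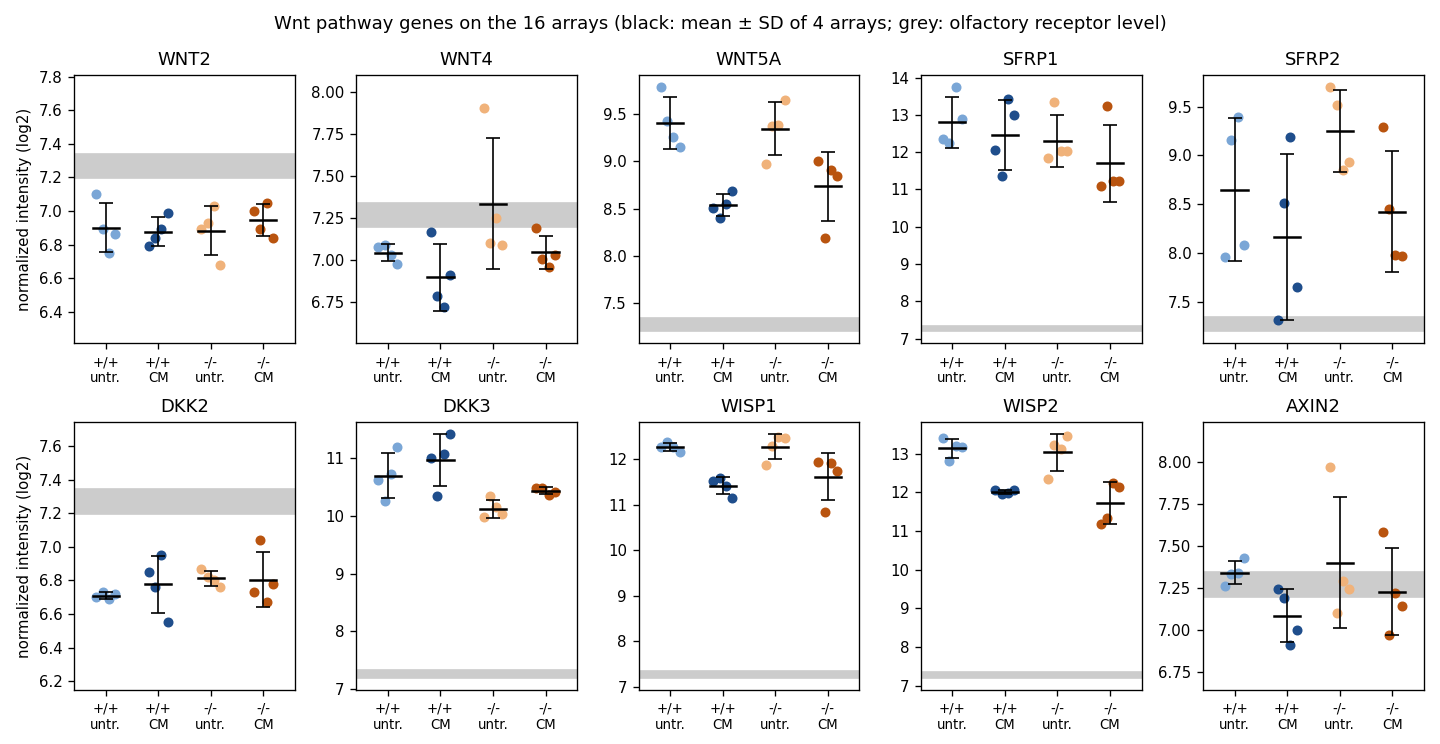
Normalized intensity (log2) of the 10 genes on each array, by genotype and medium, with a panel per gene and its own scale on the y axis. Points are arrays, black bars the mean ± SD of 4 arrays, and the grey band the background level of 7.20 to 7.34. WNT5A, WISP1 and WISP2 sit lower with CM than untreated in MEKK1+/+ cells without overlap, while WNT2 and DKK2 stay under the band on all arrays.

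Among the ligands, only WNT5A, known chiefly for signaling without beta-catenin and for effects on cell polarity and movement, was measured above background throughout. Its level on the untreated MEKK1+/+ arrays was 9.79, 9.43, 9.26 and 9.15, and with CM it was 8.51, 8.40, 8.55 and 8.69. Every untreated array was above every CM array, and the means of 9.41 ± 0.28 and 8.54 ± 0.12 (SD, n = 4) differed by −0.87 ± 0.18 (log2, SE, adjusted p = 0.0107, exact permutation p = 0.0286, the smallest that 4 arrays against 4 allow). In MEKK1-/- cells WNT5A was 8.97, 9.38, 9.39 and 9.65 untreated and 9.0, 8.19, 8.91 and 8.84 with CM. Here the groups overlapped at the keratin-rich arrays alone, where the treated array of replicate 1 was marginally above the untreated array of the same number. The difference of −0.61 ± 0.18 (SE) missed the threshold (adjusted p = 0.0687, exact permutation p = 0.0571). With both keratin-rich arrays left out it was −0.83 (adjusted p = 0.0232), with replicates 3 and 4 and their lower keratins still in the fit. Without the treated MEKK1-/- array of replicate 2, the lowest of its group, it was −0.43 (adjusted p = 0.184). The value moved with single arrays in either direction and passed the threshold under 4 of 27 alternative settings. The part of epithelial cells in it was not tested.

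WNT2, a stromal ligand of the mammary gland, was at 6.68 to 7.10 on the 16 arrays, below the background level on each, so no fold change is given for it. WNT4, which acts downstream of progesterone in mammary branching, was at 6.72 to 7.25 on 15 arrays and at 7.91 on the untreated MEKK1-/- array of replicate 1, which is 1 of the keratin-rich pair. It was above background on that array only.

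The inhibitor SFRP1 differed widely between arrays of a group, with an SD of 0.69 to 1.04. Its level was 12.36, 12.24, 13.75 and 12.88 on untreated MEKK1+/+ arrays and 12.06, 11.36, 13.42 and 13.01 with CM, and the groups overlapped over most of their range. In MEKK1-/- cells it was 11.85, 13.34, 12.02 and 12.02 untreated and 11.10, 13.25, 11.24 and 11.23 with CM. Replicate 2 was more than 1 log2 unit above the others under both conditions, and 3 of the 4 treated arrays were below all untreated ones. The summed macrophage marker intensity was also highest on those replicate 2 arrays among the MEKK1-/- arrays, at 65164 and 55931 against 12346 to 37448 on the rest, and its part in the SFRP1 level was not tested. The unpaired differences with CM were −0.35 ± 0.54 in MEKK1+/+ cells (SE, adjusted p = 0.851) and −0.60 ± 0.54 in MEKK1-/- cells (adjusted p = 0.688). Replicate 2 set the size of the latter, which was −0.26 without its untreated array and −1.12 without its treated array.

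SFRP2, a close relative of SFRP1, is shown with its promoter because its window was among the RefSeq windows used. A further reason is that it was among the genes that passed the threshold once MEKK1-/- arrays were compared by replicate number. The window lies at chr3:83766071-83766370 (GRCm38.p6, plus strand), from 250 bases before to 50 bases after the transcript start, printed 5′ to 3′ in lower case since no searched motif matched.
SFRP2 promoter: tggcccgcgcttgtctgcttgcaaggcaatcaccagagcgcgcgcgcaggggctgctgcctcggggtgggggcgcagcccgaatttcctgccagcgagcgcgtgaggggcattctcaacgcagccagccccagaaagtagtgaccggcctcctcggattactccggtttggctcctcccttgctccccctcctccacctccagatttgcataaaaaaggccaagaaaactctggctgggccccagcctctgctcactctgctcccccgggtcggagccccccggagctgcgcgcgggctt
Its level was 7.96, 9.16, 9.39 and 8.08 on untreated MEKK1+/+ arrays and 7.31, 8.51, 9.19 and 7.65 with CM. Untreated MEKK1-/- arrays gave 9.70, 9.52, 8.85 and 8.93 and those with CM 9.29, 8.45, 7.98 and 7.97. Groups overlapped in both genotypes, and the differences were −0.48 ± 0.43 (SE, adjusted p = 0.684) and −0.83 ± 0.43 (adjusted p = 0.376).

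DKK3, a Dickkopf family member that is divergent in sequence and is not a typical LRP antagonist, had differences above 0 with CM. It was 10.61, 10.25, 10.72 and 11.18 untreated and 11.00, 10.34, 11.07 and 11.41 with CM in MEKK1+/+ cells. MEKK1-/- arrays gave 9.98, 10.33, 10.14 and 10.02 untreated and 10.48, 10.47, 10.36 and 10.40 with CM, and there every treated array was above every untreated one. The differences were 0.27 ± 0.20 (SE, adjusted p = 0.591), which was −0.16 in the values as deposited, and 0.31 ± 0.20 (adjusted p = 0.509, exact permutation p = 0.0286). DKK2, which can act on LRP co-receptors, was at 6.55 to 7.04 on the 16 arrays, below background on each.

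WISP1 and WISP2, matricellular proteins of the CCN family first described as genes induced by WNT1, moved with WNT5A. WISP1 was 12.27, 12.39, 12.27 and 12.16 on untreated MEKK1+/+ arrays and 11.52, 11.60, 11.41 and 11.16 with CM. The means of 12.28 ± 0.10 and 11.42 ± 0.19 (SD, n = 4) differed by −0.85 ± 0.20 (SE, adjusted p = 0.0226, exact permutation p = 0.0286) with no overlap, but the adjusted p ran from 0.050 to 0.0725 when untreated replicate 1, 2 or 3 or treated replicate 3 or 4 of MEKK1+/+ was left out. In MEKK1-/- cells WISP1 was 11.88, 12.29, 12.48 and 12.47 untreated and 11.94, 10.85, 11.92 and 11.75 with CM. Replicate 1 again did not follow the other numbers, and the difference was −0.67 ± 0.20 (adjusted p = 0.0771, exact permutation p = 0.0857), or −0.91 (adjusted p = 0.0255) without the keratin-rich arrays. Without the treated MEKK1-/- array of replicate 2 it was −0.41 (adjusted p = 0.138), and it passed under 5 of 27 alternative settings.

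WISP2 had the largest difference of the 10 genes in both genotypes. Its level was 13.41, 12.82, 13.20 and 13.17 on untreated MEKK1+/+ arrays and 12.06, 11.96, 11.99 and 12.06 with CM, so that the treated arrays lay close together and below all untreated ones. The means were 13.15 ± 0.24 and 12.02 ± 0.05 (SD, n = 4), a difference of −1.14 ± 0.24 (SE, adjusted p = 0.0136, exact permutation p = 0.0286). In MEKK1-/- cells WISP2 was 12.35, 13.23, 13.13 and 13.45 untreated and 11.19, 11.35, 12.25 and 12.13 with CM. The groups again did not overlap, and the difference was −1.31 ± 0.24 (adjusted p = 0.00575, exact permutation p = 0.0286). In the values as deposited it was −1.39 and no longer passed (adjusted p = 0.135). In that fit the adjusted p of limma was 0.862 for WISP1 and 0.9999 for WNT5A, SFRP1, SFRP2 and DKK3. The share of all genes called in that fit was not counted. Unlike WNT5A and WISP1, WISP2 was lower with CM on the keratin-rich pair too, with a difference of −1.16 (log2).

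AXIN2, a scaffold of the beta-catenin destruction complex and a direct beta-catenin target that serves as a readout of canonical signaling, stood near the background level. Its promoter is shown for that role, at chr11:108920099-108920398 (GRCm38.p6, plus strand), printed as for SFRP2.
AXIN2 promoter: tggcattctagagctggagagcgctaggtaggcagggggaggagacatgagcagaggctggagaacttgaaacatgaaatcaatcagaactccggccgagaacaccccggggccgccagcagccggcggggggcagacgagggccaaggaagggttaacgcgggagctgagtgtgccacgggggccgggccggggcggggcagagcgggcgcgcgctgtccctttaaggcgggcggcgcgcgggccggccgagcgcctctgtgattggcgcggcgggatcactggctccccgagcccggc
AXIN2 was 7.26, 7.33, 7.34 and 7.43 on untreated MEKK1+/+ arrays, all 4 above background, and 7.24, 7.19, 6.91 and 7.0 with CM, 1 of 4 above it. The groups did not overlap, but the difference of −0.25 ± 0.16 (SE) was small against the spread over all groups (adjusted p = 0.504, exact permutation p = 0.0286). On MEKK1-/- arrays AXIN2 was 7.97, 7.10, 7.29 and 7.24 untreated and 7.58, 6.97, 7.22 and 7.14 with CM, highest on the keratin-rich pair, with a difference of −0.17 ± 0.16 (adjusted p = 0.715). Promoter windows of 5 of the 10 genes were matched in the set of RefSeq windows used (WNT2, WNT4, SFRP2, DKK2 and AXIN2). No motif was searched in promoters of WNT5A, SFRP1, DKK3, WISP1 or WISP2, and so in none of the members that fell with CM. The core TCF/LEF motif CTTTG, searched on both strands, matched in DKK2 only, at position −80 from the start, and occurs in 53.9% of 32851 such windows. The AP-1 motif TGANTCA, searched because MEKK1 is known to act upstream of AP-1, matched in none of the 5 and occurs in 7.8% of windows.

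Taken by count, 3 of the 10 genes passed the threshold with CM in MEKK1+/+ cells, where 5.01% of all genes did. All 3 were lower, as were 2.75% of all genes. The groups of 4 did not overlap for 4 of the 10 genes (WNT5A, WISP1, WISP2 and AXIN2) and for 9.70% of all genes. In MEKK1-/- cells 1 of 10 passed, WISP2, which fell, against 4.69% of all genes called and 2.51% called lower. There 2 of 10, WISP2 and DKK3, had groups that did not overlap, against 10.4% of all genes. The shares over all genes include 8251 of 18132 that were above background on no array. On every array 6923 of all genes were above it, and of the members WNT5A, SFRP1, SFRP2, DKK3, WISP1 and WISP2. No share was computed over genes above background alone. The median difference of the 10 genes was −0.30 (log2) in MEKK1+/+ and −0.44 in MEKK1-/- cells, beside medians over all genes of −0.0018 and −0.0042. In the values as deposited the median over all genes shifted by −0.28 with CM in MEKK1+/+ cells, and the falls of WNT5A, WISP1 and WISP2 there exceeded that shift. The order of the size of the differences was WISP2, WNT5A and WISP1 in MEKK1+/+ cells, with intervals that overlapped one another (−1.66 to −0.62, −1.25 to −0.49 and −1.28 to −0.42, 95% confidence).

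**Figure D2:**
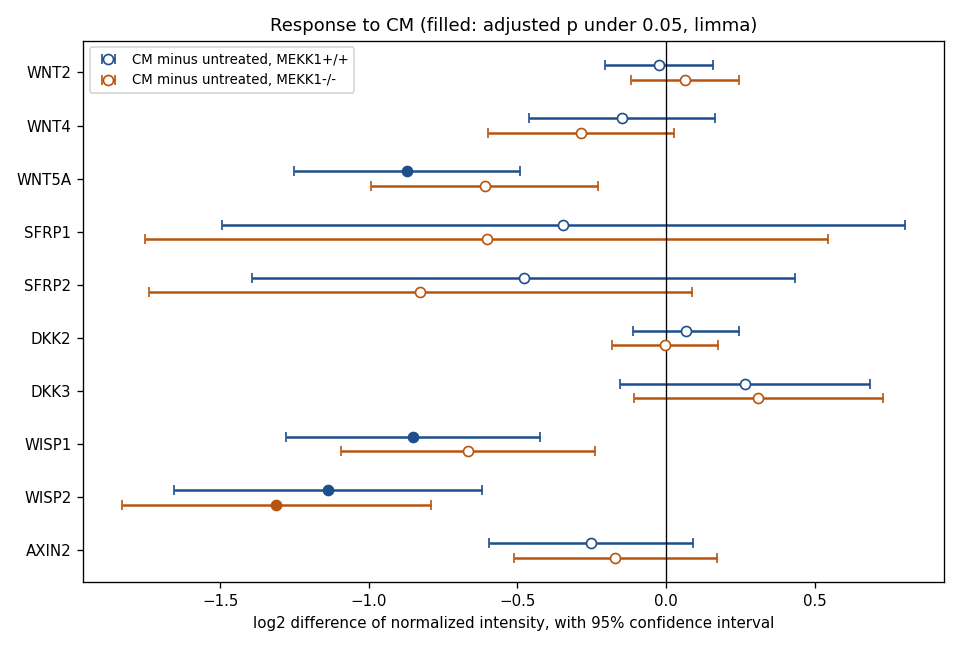
Difference between CM and untreated arrays (log2, x axis) for each of the 10 genes, by genotype. Points are limma estimates, bars 95% confidence intervals, and filled points have an adjusted p under 0.05. WNT5A, WISP1 and WISP2 are filled in MEKK1+/+ cells (−0.87, −0.85 and −1.14), and only WISP2 is filled in MEKK1-/- cells (−1.31).

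Replicate numbers in the labels run from 1 to 4 in each group. Untreated and treated MEKK1-/- arrays of the same number deviated together from their group means, so these arrays were also compared within number. The block within genotype was fitted to all 16 arrays. Its error therefore also rests on the MEKK1+/+ numbers, which did not meet the rule for pairs. With it, the adjusted p of limma in MEKK1-/- cells fell to 0.00186 for SFRP2, 0.0414 for SFRP1, 0.0306 for DKK3 and 0.0475 for WISP1. WISP2 had 0.000594, and WNT5A stayed at 0.0692. With this block, 5 of 10 genes were called in MEKK1-/- cells, 4 lower and DKK3 higher, against 7.93% of all genes. When the MEKK1-/- arrays were fitted alone with the block, 3 of 10 were called, against 8.43% of all genes: SFRP1 (adjusted p = 0.0254), SFRP2 (0.0049) and WISP2 (0.00257). DKK3 (0.0503), WNT5A (0.0783) and WISP1 (0.0967) did not pass in that fit. The same-numbered differences of SFRP2 in MEKK1-/- cells were −0.40, −1.07, −0.87 and −0.96 for replicates 1 to 4, and those of SFRP1 were −0.76, −0.09, −0.77 and −0.80. For DKK3 they were 0.50, 0.15, 0.23 and 0.37. All 4 differences had the same sign for each of these inhibitors, although the level of SFRP1 differed between numbers by more than it differed with CM. With 3 mice per genotype, some of the 4 numbers may share a mouse. The blocked p values and the counts of signs may therefore not rest on 4 independent pairs.

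WISP2 differences by number were −1.36, −0.86, −1.22 and −1.11 in MEKK1+/+ and −1.16, −1.89, −0.88 and −1.31 in MEKK1-/- cells, lower in all 8. WNT5A was lower in 7 of 8, with −1.28, −1.03, −0.71 and −0.46 in MEKK1+/+ cells and 0.03, −1.19, −0.48 and −0.80 in MEKK1-/- cells. WISP1 showed the same exception, with 0.06, −1.44, −0.56 and −0.72 in MEKK1-/- cells after −0.75, −0.79, −0.87 and −1.0 in MEKK1+/+ cells. Counted over members, all 4 same-numbered differences had 1 sign for 6 of 10 genes in MEKK1+/+ cells (24.4% of all genes) and for 6 of 10 in MEKK1-/- cells (25.9%). These counts include AXIN2 in both genotypes and WNT4 in MEKK1-/- cells. AXIN2 was above background on 8 of the 16 arrays and WNT4 on 1, so their signs rest partly on levels at background. SFRP2 and DKK3 were among the 6 in both genotypes, and in MEKK1+/+ cells, where the numbers did not meet the rule for pairs, their differences were −0.65, −0.64, −0.19 and −0.43, and 0.39, 0.09, 0.35 and 0.23. With the block within genotype, limma gave SFRP2 an adjusted p of 0.0264 in MEKK1+/+ cells and DKK3 one of 0.0585.

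**Figure D3:**
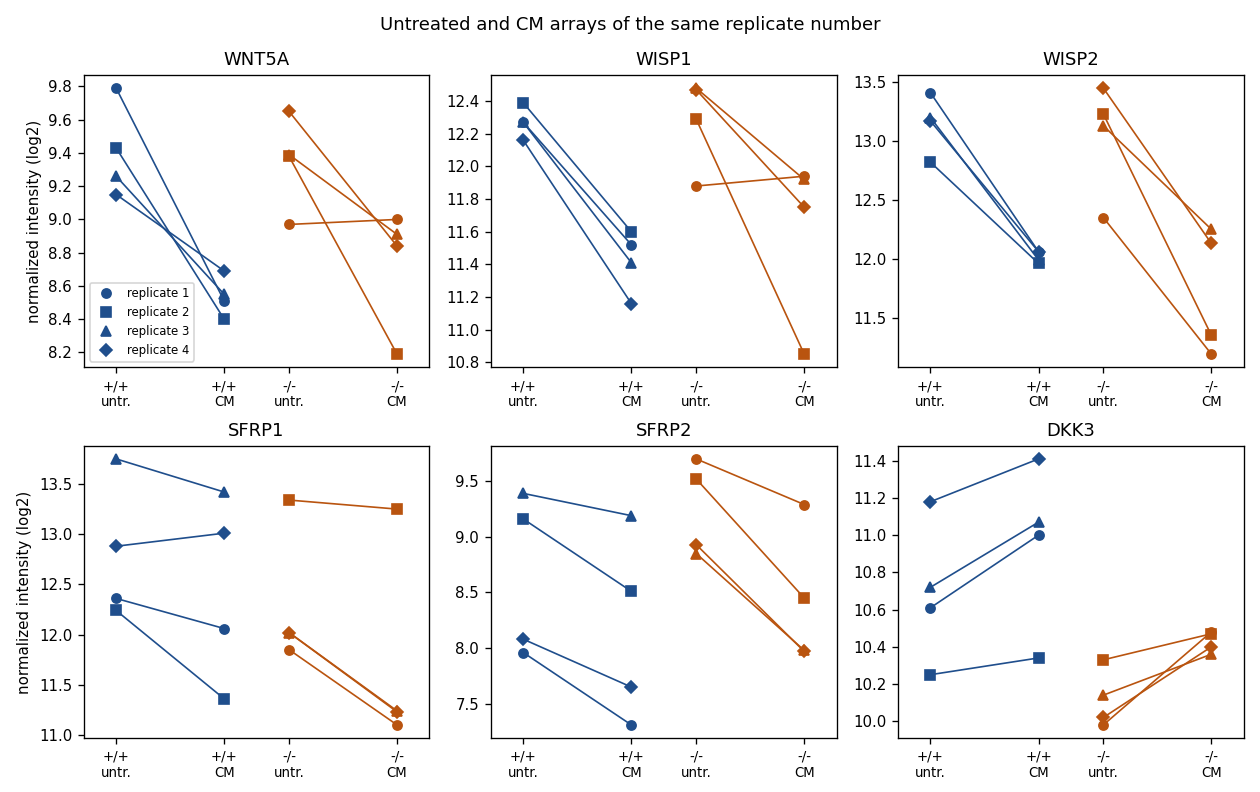
Normalized intensity (log2, y axis) of the 6 genes above background on every array, untreated and with CM, in MEKK1+/+ (blue) and MEKK1-/- (orange) cells. Lines join arrays of the same replicate number and symbols mark the number. WISP2 is lower with CM along all 8 lines and WNT5A and WISP1 along 7, and the SFRP1 lines lie further apart than their ends.

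Between genotypes, none of the 10 genes passed the threshold in untreated cells, where 0% of all genes did. The groups did not overlap for 1 of 10, DKK2, below background, and for 4.61% of all genes. With CM, 0 of 10 passed (0.00552% of all genes) and 0 of 10 had groups that did not overlap (4.17% of all genes). The nearest to the threshold was DKK3, with −0.57 for MEKK1-/- minus MEKK1+/+ untreated (95% confidence interval −0.99 to −0.15, unadjusted p = 0.0106, adjusted p = 0.465 by limma, exact permutation p = 0.0571) and −0.53 with CM (−0.95 to −0.11, adjusted p = 0.538, exact permutation p = 0.143). Of the MEKK1+/+ arrays only replicate 2 came down to the levels of the MEKK1-/- arrays of the same medium, at 10.25 untreated and 10.34 with CM. That replicate also had the lowest macrophage marker sums among MEKK1+/+ arrays, 29775 and 26300, and the part of those cells in the DKK3 level was not tested.

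For the genes that fell with CM, the genotype differences are given with their 95% confidence intervals. WISP1 differed between untreated genotypes by 0.0039 (−0.42 to 0.43), WNT5A by −0.061 (−0.44 to 0.32) and WISP2 by −0.11 (−0.63 to 0.40). With CM the values were 0.19 for WISP1 (−0.24 to 0.62), 0.20 for WNT5A (−0.18 to 0.58) and −0.29 for WISP2 (−0.81 to 0.23). SFRP1 and SFRP2 had wider intervals untreated, −1.65 to 0.65 and −0.31 to 1.51. By the z-score comparison named in the methods, which takes the spread between genes as the error, SFRP1 with CM was lower in MEKK1-/- cells with an adjusted p of 0.00852, against 0.721 by limma for the difference of −0.76 ± 0.54 (SE). Its arrays overlapped, since replicate 2 was at 13.25 in MEKK1-/- cells and at 11.36 in MEKK1+/+ cells.

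**Figure D4:**
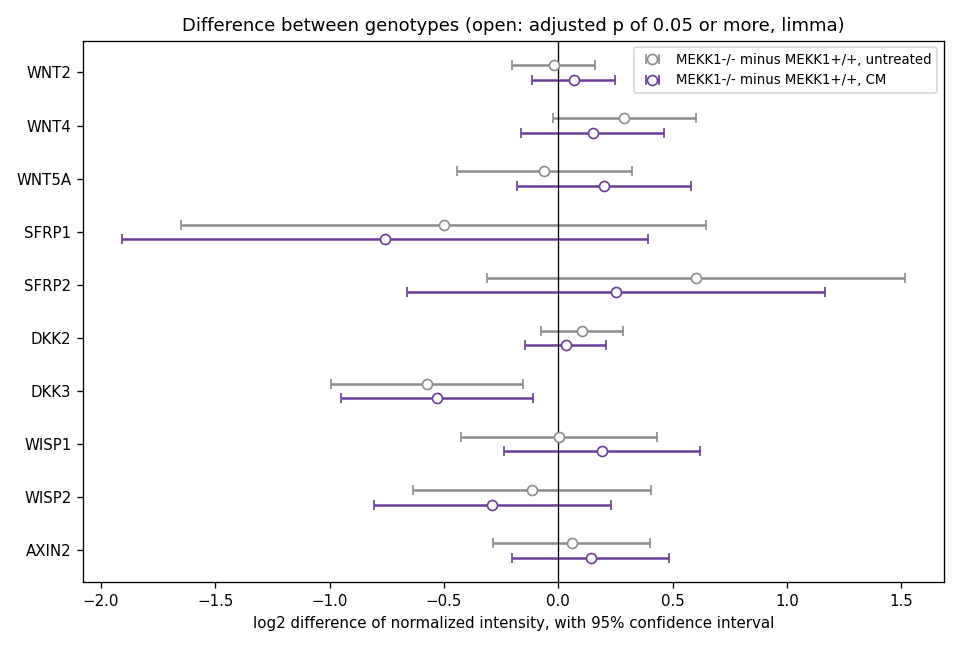
Difference between MEKK1-/- and MEKK1+/+ arrays (log2, x axis) for the 10 genes, untreated (grey) and with CM (purple), with 95% confidence intervals. All points are open, since none had an adjusted p under 0.05, and the intervals of DKK3 (−0.99 to −0.15 and −0.95 to −0.11) lie below 0.

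The interaction tested whether the response to CM differed between genotypes. It was called for 0 of 10 members and for 0% of all genes. By limma, 0 of the 10 had an unadjusted p under 0.05, against 473 of all 18132 genes. The response of MEKK1-/- minus that of MEKK1+/+ was 0.26 for WNT5A (−0.28 to 0.80), 0.19 for WISP1 (−0.42 to 0.79) and −0.17 for WISP2 (−0.91 to 0.56). These intervals include 0 and also include differences of a size near that of the WNT5A and WISP1 responses themselves, so a difference in response was neither shown nor bounded closely.

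Beyond the members, 114 other genes of the pathway and of the CCN family were listed by role and 103 were measured, with 34 above background on every array and 42 on none. With CM, 3 passed the threshold as higher and 4 as lower in MEKK1+/+ cells, against 3 and 9 in MEKK1-/- cells. Over all genes 5.01% passed in MEKK1+/+ cells, 2.75% as lower, and 4.69% in MEKK1-/- cells, 2.51% as lower. The median difference over the 103 was −0.012 and 0.0025, close to that of all genes. Of the 16 other ligands none was above background on every array. Only WNT16 passed, in MEKK1-/- cells, and it was below background on all arrays. Among the 6 measured genes of ligand secretion and enhancement, PORCN, the enzyme that attaches the lipid to Wnt ligands, fell in both genotypes, with −0.32 (adjusted p = 0.00397, −0.68 as deposited) and −0.28 (adjusted p = 0.00939). Its level was 8.13, 8.25, 8.28 and 8.07 untreated against 7.88, 7.81, 7.92 and 7.85 with CM in MEKK1+/+ cells. None of the 11 other secreted inhibitors passed, and 7 of them were above background on no array.

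Receptors gave the largest change. FZD2, a Frizzled receptor that binds WNT5A among others, was 10.85, 11.12, 11.22 and 10.86 on untreated MEKK1+/+ arrays and 9.46, 9.98, 9.66 and 9.46 with CM. On MEKK1-/- arrays it was 11.20, 11.10, 11.43 and 11.33 untreated and 10.44, 9.51, 9.37 and 9.51 with CM. It fell in both genotypes without overlap, with differences of −1.37 ± 0.19 (SE, adjusted p = 0.00104) and −1.56 ± 0.19 (adjusted p = 0.000432), which were larger than those of the 10 members. The receptors FZD5 and FZD7 fell in MEKK1-/- cells, with −1.31 (adjusted p = 0.0149) and −0.80 (adjusted p = 0.0145), and gave −0.93 (adjusted p = 0.0756) and −0.57 (adjusted p = 0.0738) in MEKK1+/+ cells. FZD8 passed as lower in MEKK1+/+ cells (adjusted p = 0.0356, and 0.0780 in MEKK1-/- cells), and LGR5, an R-spondin receptor and beta-catenin target, passed as lower in MEKK1-/- cells (adjusted p = 0.0390, and 0.144 in MEKK1+/+ cells). Neither was above background on any array with CM, so no size is given. FZD8 was above it on 3 of 4 untreated arrays of each genotype, and LGR5 on 3 of 4 untreated MEKK1-/- arrays and 2 of 4 untreated MEKK1+/+ arrays. Of the 22 measured receptors and co-receptors, 2 were lower in MEKK1+/+ cells (2.75% of all genes) and 4 in MEKK1-/- cells (2.51% of all genes), and none was higher.

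Inside the cell, BTRC, the ubiquitin ligase subunit that recognizes phosphorylated beta-catenin, rose by 0.44 in MEKK1+/+ cells (adjusted p = 0.0147) and by 0.40 in MEKK1-/- cells (adjusted p = 0.0251). In the values as deposited, with their shift of the median gene in MEKK1+/+ cells, its difference there was 0.079. TLE4, a corepressor of TCF/LEF factors, fell with −0.32 (adjusted p = 0.0240, −0.67 as deposited) and −0.31 (adjusted p = 0.0332). TCF7L2, a TCF/LEF factor, and BCL9L, a coactivator of beta-catenin, fell in MEKK1-/- cells with −0.31 (adjusted p = 0.0138) and −0.49 (adjusted p = 0.0259), and gave −0.12 (adjusted p = 0.437) and −0.26 (adjusted p = 0.264) in MEKK1+/+ cells. Of 26 measured transduction genes, 1 rose and 1 fell in MEKK1+/+ cells, near the 5.01% of all genes called there, and 1 rose and 3 fell in MEKK1-/- cells, where 4.69% of all genes were called. Of the 13 other beta-catenin targets measured, 9 were above background on no array and LGR5 was the only gene that passed.

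In the planar polarity and other branches, DACT2, a binding partner of Dishevelled, rose by 0.68 (adjusted p = 0.0025, 0.43 as deposited) and 0.72 (adjusted p = 0.00152). It was 7.07, 7.28, 7.11 and 7.51 untreated against 7.67, 8.20, 7.81 and 7.99 with CM in MEKK1+/+ cells, and was above background on all arrays with CM but on only 2 of 4 untreated arrays of each genotype, so these sizes rest partly on levels at background. CELSR3, a cadherin of the polarity branch, passed as higher in both genotypes (adjusted p = 0.0256 and 0.0228). It was above background on 1 of 4 untreated arrays of each genotype, so no size is given, and its difference in MEKK1+/+ cells was 0.023 in the values as deposited. The CCN family members CTGF and CYR61, relatives of WISP1 and WISP2, gave −0.42 (adjusted p = 0.485) and −0.72 (adjusted p = 0.250) in MEKK1+/+ cells and −0.45 (adjusted p = 0.452) and −0.76 (adjusted p = 0.219) in MEKK1-/- cells. None of the 103 genes passed between genotypes or in the interaction. For the interaction, 2 of the 103 had an unadjusted p under 0.05 by limma, against 473 of all 18132 genes.

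**Figure D5:**
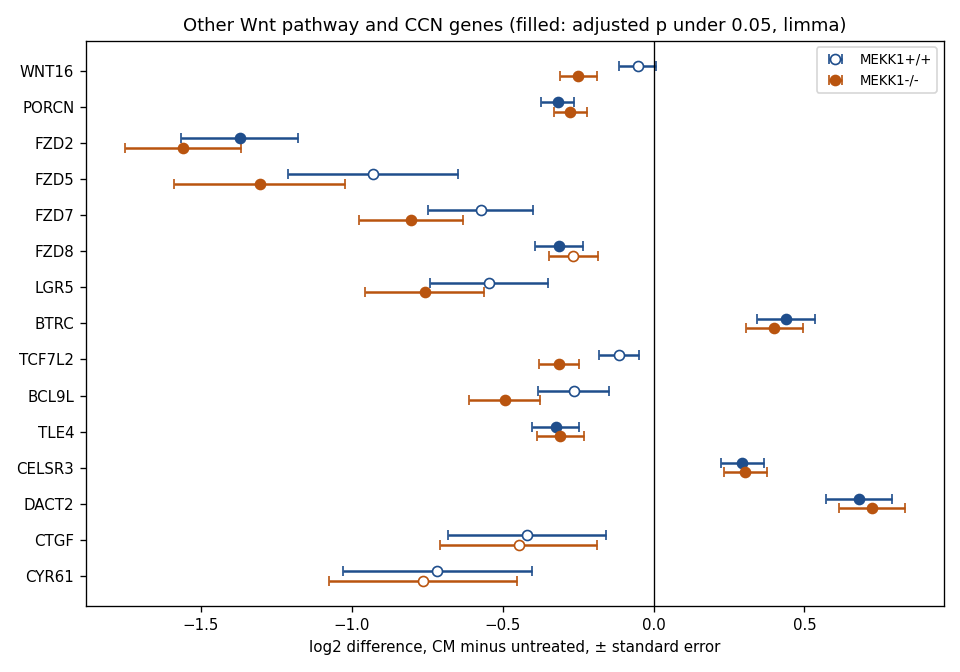
Difference between CM and untreated arrays (log2, x axis) for the 13 other pathway genes called in either genotype and for CTGF and CYR61, with standard errors. Filled points have an adjusted p under 0.05 by limma. FZD2 has the largest falls (−1.37 and −1.56), DACT2 the largest rises (0.68 and 0.72). WNT16 on all arrays, and FZD8 and LGR5 on all arrays with CM, were not above background, and CELSR3 and DACT2 were above it on 1 and 2 of 4 untreated arrays of each genotype, so the plotted sizes of these genes are uncertain.

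The profiles of WNT5A, WISP1 and WISP2 over the 16 arrays resembled each other, with Pearson correlations of 0.91 for WNT5A and WISP1, 0.84 for WNT5A and WISP2 and 0.80 for WISP1 and WISP2. The 16 arrays share the medium, the genotype and, by number, perhaps the animal, so these values are descriptions. SFRP1 (0.01) and DKK3 (−0.34) did not follow WNT5A. Among the 6922 other genes above background on every array, the profiles most like that of WNT5A were FRK (0.947) and RBM45 (0.945). Those most like WISP1 were PHF17 (0.956) and DRBP1 (0.938), and those most like WISP2 were RFTN1 (0.967) and SPTLC1 (0.936).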

How the data were processed

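RNA of primary mammary fibroblasts was measured on 16 Illumina Mouse 8 arrays, 4 for each genotype and medium. The authors deposited linear intensity values, 1 per gene symbol, normalized by a core facility with a method not given in the sources used here, as is the way probes were combined. A non-linear or absent scaling between arrays would move many genes at once, and array medians ran from 114 to 170.1, so the log2 intensity was quantile normalized. Same-group arrays correlated at 0.978 to 0.996 and 0 were identical. Precision is limited by 4 arrays per group.

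The 4 group means were fitted over all 18132 genes with lmFit and eBayes (limma 3.58.1, R 4.3.3, 12 residual degrees of freedom). There were 5 comparisons, and adjusted p values are Benjamini-Hochberg values over all genes called under 0.05. A 2-sided exact permutation test of 4 arrays against 4 was run beside this for single genes. The steps were tested on simulated data. Called genes numbered 909 and 851 for CM in MEKK1+/+ and MEKK1-/-, 0 and 1 for genotype, and 0 for the interaction. The z-test of the methods called 233, 232, 221, 205 and 73.

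The members and lists were chosen with earlier results of these data known. Named genes were the members, MAP3K1, listed pathway genes past the threshold, and the 2 genes most correlated with each called member. CTGF and CYR61 are named as well, chosen after their values were seen. Groups and replicate numbers came from the labels. Numbers were taken as pairs where each same-numbered correlation of deviations exceeded 0.1: these were 0.505, 0.403, 0.219 and 0.251 in MEKK1-/- cells (pairs) and −0.038, 0.485, 0.120 and 0.576 in MEKK1+/+ cells (not pairs). The deviations of a gene in a group sum to 0, so these correlations depend on each other. They do not show that each number is a pair. In MEKK1+/+ cells only replicate 1 missed the rule, while macrophage marker sums ran by number, at 79620, 29775, 70411 and 53899 untreated. With CM these sums were 71993, 26300, 70224 and 55113. The alternatives were the values as deposited, median centring, a filter on genes dimmer than the median gene, 16 added to each value, fits of the compared groups alone, a trended robust eBayes, the z-test, replicate blocks and each array left out. A block in MEKK1-/- arrays alone and the omission of the keratin-rich arrays were added after the data were seen. Marker lists for fibroblasts, epithelial cells and macrophages are described with the results. Fat, lymphocyte and endothelial markers were above background on no array for 5 of 6, 3 of 5 and 1 of 6 measured. Promoters are from RefSeq (GRCm38.p6).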

Additional observations from a re-analysis of the deposited data

Results flagged for a closer look

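SFRP1 was far above the other arrays on replicate 2 of the MEKK1-/- cells under both conditions. It was 13.34 untreated, where the nearest of the other 3 arrays was at 12.02, and the gap took a share of 0.887 of the group's range. With CM it was 13.25, the nearest other array was at 11.24, and the share was 0.933. Both shares are above the 95% critical value of Dixon for 4 samples. In all, 40 groups of 4 were checked (10 genes in 4 groups), and chance alone gives such a value in about 5% of groups, which is the share found, 2 of 40. The arrays of both conditions carry the same replicate number, and they also had the highest macrophage marker sums among MEKK1-/- arrays. The cause was not tested.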

How the results depend on the processing

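WNT5A and WISP2 passed the threshold in MEKK1+/+ cells under all 26 alternatives, with differences from −1.30 to −0.74 and from −1.52 to −1.06. WISP1 passed there under 21 of 26 and was lower in all. WISP2 in MEKK1-/- cells passed under 26 of 27, the exception being the values as deposited (−1.39, adjusted p = 0.135). WNT5A and WISP1 passed in MEKK1-/- cells under 4 and 5 of 27. The count of members called with CM in MEKK1-/- cells, 1 in the unpaired fit, was 0 in the values as deposited, 2 by the z-test, 3 with only genes above the median level, 5 with the replicate block within genotype, 3 with the replicate block in MEKK1-/- arrays alone and 3 with both keratin-rich arrays left out. Leaving out single arrays gave 1 to 3, with 3 (WNT5A, WISP1 and WISP2) without untreated or treated replicate 1 of MEKK1-/-. Over single arrays left out, the differences in MEKK1-/- cells ran from −0.74 to −0.43 for WNT5A and from −0.80 to −0.41 for WISP1. The z-test called 1 member between genotypes with CM. DKK3 with CM in MEKK1+/+ cells reversed to −0.16 in the values as deposited, where the median of all genes shifted by −0.28. The replicate block within genotype called 4 members in MEKK1+/+ cells, adding SFRP2 (adjusted p = 0.0264). The share of all genes called was not counted for this fit in MEKK1+/+ cells. It was not counted for the values as deposited, the filter on dim genes or the fits with arrays left out either. The counts of members from these fits therefore cannot be set against the whole table. DKK3 between genotypes was lower in MEKK1-/- cells and past the threshold in 0 of 25 alternatives for each condition. The causes of these moves were not tested. WNT2 and DKK2 were below background, where a fall could not be measured, and WNT4 and AXIN2 had little room for one.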
